A study of Mus musculus with 8 samples.

Results

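Notch signalling was examined through 10 genes chosen by symbol: the ligands Jag1 and Dll4, the receptors Notch1, Notch2 and Notch4, the coactivator Maml1 and the target genes Hey1, Hey2, Heyl and Hes1. They are 10 of 20701 gene symbols in the deposited count table, each had 1 transcript entry, and all 10 passed the filter on low counts. RNA was sequenced from the pharyngeal mesoderm and hearts of mouse embryos at E8.75, a stage of 6 somites in these samples. All embryos were on the C57BL/6 strain. There were 4 Isl1-/- (Isl1 knockout) embryos and 4 wild-type controls, and each library came from 1 embryo. The labels name no treatment and no Cre driver for either group, and the dissected piece held several cell types, so a level is an average over all of them. Fewer cells of a type and less RNA per cell cannot be told apart in such bulk samples.

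Notch receptors are single-pass membrane proteins that are activated by Jagged or Delta ligands on a neighbouring cell. Cleavage by ADAM proteases and then by gamma-secretase releases the receptor's intracellular domain, which enters the nucleus and joins the DNA-binding protein RBPJ and a Mastermind coactivator such as MAML1. This complex switches on Hes and Hey genes, which encode basic helix-loop-helix repressors. In the forming heart the pathway is best known from the endocardium, where it acts in valve and trabecula formation, and from arterial endothelium. Hey1 and Hey2 are also transcribed in the myocardium of the atria and the ventricles, respectively. Isl1 is known as a LIM-homeodomain protein that binds DNA in progenitors of the heart, and the levels of the Notch genes were compared between Isl1 knockout and wild-type embryos.

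The labels were checked on the targeted gene and on cell type markers. Isl1 was at 9.72 to 26.9 CPM (counts per 1000000 reads, TMM-scaled) in wild-type and at 1.78 to 2.40 CPM in knockout embryos, a log2 fold change of -3.00 (FDR = 0.0041), with 34 to 60 Isl1 reads left in each knockout library. Library totals lay between 18916452 and 26153039 counts, with knockout embryos 3 and 4 lowest, and knockout embryo 2 alone carried the molecule label total RNA, against polyA RNA for the other 7. More than 1000 reads of 4 Y-linked genes were found in 1 of 4 wild-type and 3 of 4 knockout embryos. By these reads, sex was not balanced between the genotypes. Of 10 cardiomyocyte markers, none of which was at 0 in every embryo, 8 were lower in knockout embryos at an FDR of 0.05. Their summed level was 2931 to 4416 CPM in wild-type and 1567 to 2389 CPM in knockout embryos (exact two-sided permutation test, p = 0.0286, the smallest that 4 against 4 allows). Of 20 endothelial and endocardial markers, led by Kdr and Cdh5 and with no gene at 0 in every embryo, 0 were called by edgeR or by DESeq2 and 3 were lower at an unadjusted p under 0.05. Their summed level overlapped between the genotypes, at 553 to 720 CPM in wild-type and 473 to 642 CPM in knockout embryos (exact permutation p = 0.343). For the tested markers of somites (6), foregut endoderm (7) and erythroid cells (6), neither tool made a call. None passed an unadjusted p under 0.05, and the sums of each list overlapped between the genotypes. In these lists 5, 4 and 6 estimates were above 0, with median log2 fold changes of 0.25, 0.08 and 0.49. Over all genes edgeR called 0.973%, so 0 calls in lists this short do not show equal amounts of these tissues.

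Promoter sequences from RefSeq (GRCm38.p6, 250 bases before to 50 after the RefSeq gene start) were held for 7 of the 10 genes, Dll4, Hey2, Jag1, Maml1, Notch1, Notch2 and Notch4. Each was found once on its chromosome in mm9 by an exact match, which gave the mm9 positions. They were searched on both strands for TGGGAA, the core letters that RBPJ binds, which is TTCCCA on the other strand. In the table, 25.6% of 32851 promoters held a match. Among the 7 genes only Hey2 did, with TTCCCA starting 207 bases before the RefSeq start and TGGGAA starting 3 bases before it. For Hey2 the RefSeq start lay 18 bases downstream of the GENCODE gene start used for the gene positions here, so the TGGGAA match lay inside the GENCODE gene. The starts were the same for Dll4, Maml1 and Notch2, and the RefSeq start lay 27 bases downstream for Notch4, 124 for Jag1 and 12841 for Notch1. A short form of a homeodomain site, CTAATG, likewise searched on both strands, stood in 7.36% of all promoters and in 0 of the 7. A match describes letters and is no evidence of binding. The Hey2 promoter is printed as the target promoter with matches (in capitals), and those of Jag1 and Notch2 because these genes had the smallest p-values. All are given 5′ to 3′ on the gene's strand, at chr10:30562540-30562839 (minus strand) for Hey2, chr2:136942207-136942506 (minus strand) for Jag1 and chr3:97817211-97817510 (plus strand) for Notch2 in mm9.
Hey2: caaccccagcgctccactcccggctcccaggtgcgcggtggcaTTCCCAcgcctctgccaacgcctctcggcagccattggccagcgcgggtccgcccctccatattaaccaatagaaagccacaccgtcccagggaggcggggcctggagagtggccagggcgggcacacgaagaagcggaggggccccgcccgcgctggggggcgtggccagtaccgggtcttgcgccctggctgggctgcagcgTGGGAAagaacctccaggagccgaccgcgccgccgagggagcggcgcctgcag
Jag1: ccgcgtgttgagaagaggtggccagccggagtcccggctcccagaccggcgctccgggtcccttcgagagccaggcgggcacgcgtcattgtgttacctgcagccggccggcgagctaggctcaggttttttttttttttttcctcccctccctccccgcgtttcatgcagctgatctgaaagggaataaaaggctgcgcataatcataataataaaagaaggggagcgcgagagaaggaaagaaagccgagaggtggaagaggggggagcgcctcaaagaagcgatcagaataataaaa
Notch2: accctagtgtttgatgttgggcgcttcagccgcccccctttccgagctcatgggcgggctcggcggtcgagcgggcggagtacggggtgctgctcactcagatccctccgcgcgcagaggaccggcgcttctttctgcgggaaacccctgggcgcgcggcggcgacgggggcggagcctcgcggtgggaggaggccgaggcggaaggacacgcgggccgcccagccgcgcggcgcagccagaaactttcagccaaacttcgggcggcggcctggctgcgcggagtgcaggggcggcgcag

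All 10 genes were transcribed in every embryo, over a wide span of levels. Per transcript length, as RPKM computed from the counts with TMM-scaled library sizes, the wild-type mean was highest for Hes1 at 27.2 ± 3.81 RPKM (SD, n = 4). Next came Jag1 at 17.9 ± 3.17, Maml1 at 14.01 ± 1.10, Notch2 at 12.3 ± 0.893 and Hey1 at 10.2 ± 1.34 RPKM. Hey2 at 7.17 ± 1.24 and Notch1 at 6.61 ± 0.439 RPKM followed. Dll4 at 1.79 ± 0.440, Notch4 at 1.15 ± 0.235 and Heyl at 0.265 ± 0.0587 RPKM were lowest. In wild-type embryos the ranges of Jag1 and Maml1, Maml1 and Notch2, Notch2 and Hey1, Hey2 and Notch1, and Dll4 and Notch4 overlapped, so these neighbours were not separated by their spread. In knockout embryos Maml1 (14.5 ± 1.24 RPKM) stood above Jag1 (14.03 ± 0.480 RPKM), and Notch1 (7.25 ± 0.896 RPKM) above Hey2 (6.13 ± 0.822 RPKM), again with overlapping ranges.

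**Figure D1:**
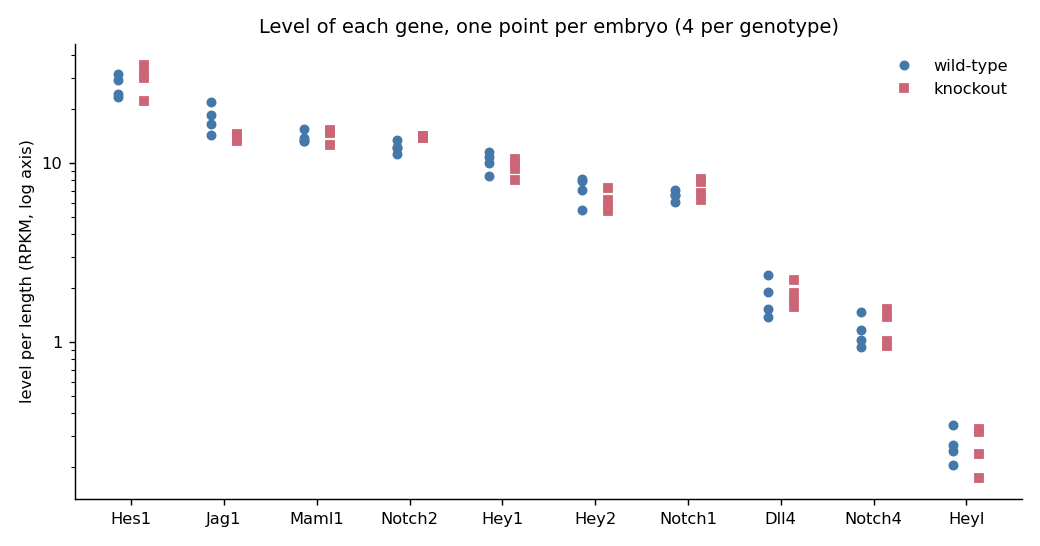
Level of each gene in RPKM on a log axis, 1 point per embryo (circles wild-type, squares knockout, n = 4 each), in order of the wild-type mean. Hes1 lies highest and Heyl lowest in both genotypes, and the Jag1 points of the knockout embryos run from 13.4 to 14.5 RPKM, near the lowest wild-type value of 14.4 RPKM.

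Against this order, the differences between genotypes were small. By edgeR's quasi-likelihood test with Benjamini-Hochberg adjustment over 14075 genes, 0 of the 10 genes passed an FDR of 0.05, where 0.973% of all genes did. DESeq2 also called 0 of 10, against 5.35% of the genes it gave an adjusted p. None changed by 1.5-fold or more at an unadjusted p under 0.05, the pair of limits that the study used and that 3.93% of all genes passed. At an unadjusted p under 0.05, Notch2 was higher and Jag1 lower in knockout embryos, against 7.37% and 10.1% of all genes in these directions. The groups were apart for 1 gene, Notch2, with all knockout values above all wild-type values. Over all genes this held for 3.96%, and the opposite for 6.33%. Of the 10 estimates 6 were above 0 and 4 below, with a median log2 fold change of 0.04 beside 0.01 over all genes.

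**Figure D2:**
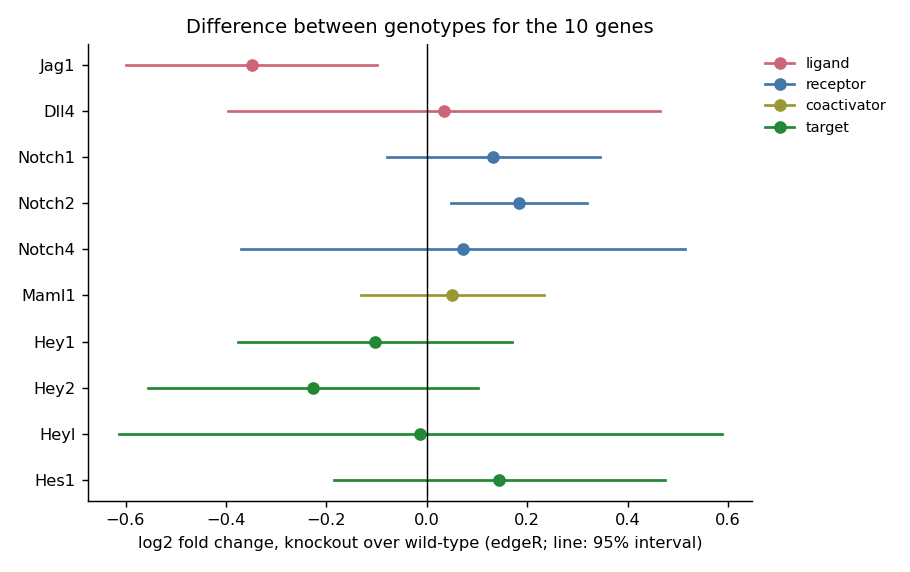
Log2 fold change of knockout over wild-type embryos for each gene (point) with its 95% interval from edgeR (line), coloured by role. The intervals of Jag1, on the negative side, and Notch2, on the positive side, leave out 0, and those of the other 8 genes hold it.

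Among the ligands, Jag1 (NM_013822, chromosome 2, 136907192 to 136942380, minus strand, mm9), which encodes Jagged1, a ligand of the developing heart and vessels, had the lowest p-value of the 10 genes. In embryos 1 to 4 its level was 102, 78.7, 119 and 90.6 CPM among the wild-type and 79.2, 77.7, 73.0 and 76.8 CPM among the knockout embryos. Wild-type embryos 1, 3 and 4 lay above every knockout embryo, whereas wild-type embryo 2 lay within the knockout range. The knockout mean of 76.7 ± 2.62 CPM was 78.5% of the wild-type mean of 97.6 ± 17.3 CPM (SD, n = 4 each), and the spread was wider among the wild-type embryos. The log2 fold change was -0.35 (SE 0.11, 95% interval -0.60 to -0.10), with p = 0.0113 and FDR = 0.165 in edgeR and an exact two-sided permutation p of 0.0571. Jag1 was therefore not called. Without wild-type embryo 3, the highest, the estimate was -0.24. Without wild-type embryo 2 it was -0.44 (FDR = 0.106), and the groups no longer overlapped.

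The endothelial marker sum was also highest in wild-type embryos 3 and 1, at 720 and 675 CPM, and it was 577 and 553 CPM in wild-type embryos 2 and 4. In the knockout embryos it ran from 473 CPM in embryo 1 to 642 CPM in embryo 4, while Jag1 stayed between 73.0 and 79.2 CPM. With the endothelial score as a covariate the Jag1 estimate was -0.27 (FDR = 0.25). The cardiomyocyte marker sum in wild-type embryos 1 to 4 was 4416, 4346, 2931 and 4027 CPM. In knockout embryos 1 to 4 it was 2080, 1567, 2389 and 1823 CPM, below every wild-type value. The part of cell composition in the Jag1 values was not tested further.

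Dll4 (NM_019454, chromosome 2, 119151520 to 119161698, plus strand), the Delta ligand of arterial endothelium and endocardium, was at 5.26, 4.74, 8.13 and 6.54 CPM in wild-type and at 5.80, 5.39, 6.43 and 7.69 CPM in knockout embryos. All 4 knockout values lay inside the wild-type range. The estimate was 0.03 on the log2 scale (95% interval -0.40 to 0.46, FDR = 0.943), from 107 to 193 reads per library. Jag1 made up 89.7% to 92.4% of the summed Jag1 and Dll4 level in wild-type and 86.3% to 90.1% in knockout embryos, in RPKM.

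The 3 receptors had estimates above 0. Notch2 (NM_010928, chromosome 3, 97817461 to 97954290, plus strand), the most abundant of them per length, was at 118, 128, 141 and 129 CPM in wild-type and at 148, 144, 144 and 149 CPM in knockout embryos. Every knockout embryo lay above every wild-type embryo, the nearest being wild-type embryo 3. The knockout mean of 147 ± 2.51 CPM was 114% of the wild-type mean of 129 ± 9.35 CPM (SD, n = 4 each). The log2 fold change was 0.18 (SE 0.06, 95% interval 0.05 to 0.32), with p = 0.0131 and FDR = 0.175 in edgeR and an exact permutation p of 0.0286, the smallest possible. It was not called. Over the alternatives the FDR ran from 0.0508 without wild-type embryo 3 (estimate 0.23) to 0.401 without wild-type embryo 1 (estimate 0.15). Leaving out wild-type embryo 3 also raised the calls over all genes from 137 to 490, so the lower FDR there was not particular to Notch2.

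Notch1 (NM_008714, chromosome 2, 26313423 to 26372183, minus strand), the receptor most studied in endocardium and arteries, was at 62.6, 57.2, 67.3 and 63.0 CPM in wild-type and at 74.0, 59.0, 64.0 and 77.1 CPM in knockout embryos. Knockout embryos 1 and 4 lay above the wild-type range and embryos 2 and 3 inside it. The estimate was 0.13 (95% interval -0.08 to 0.34, FDR = 0.505), and it ran from 0.05 with a covariate for Y-linked reads, which marked 1 of 4 wild-type and 3 of 4 knockout embryos, to 0.20 without knockout embryo 2. Notch4 (NM_010929, chromosome 17, 34701213 to 34725448, plus strand), a receptor largely of endothelial cells, was at 7.68, 6.16, 9.69 and 6.77 CPM in wild-type and at 6.22, 6.63, 9.05 and 10.04 CPM in knockout embryos. Its groups overlapped widely, with an estimate of 0.07 (95% interval -0.37 to 0.52, FDR = 0.876).

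Maml1 (NM_175334, chromosome 11, 50069136 to 50105838, minus strand), the coactivator of the nuclear complex, was at 73.9, 76.9, 86.6 and 73.3 CPM in wild-type and at 81.5, 85.5, 70.4 and 84.3 CPM in knockout embryos. The highest value was in a wild-type and the lowest in a knockout embryo. Its interval was among the narrowest, 0.05 on the log2 scale with bounds of -0.13 and 0.23 (FDR = 0.789).

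**Figure D3:**
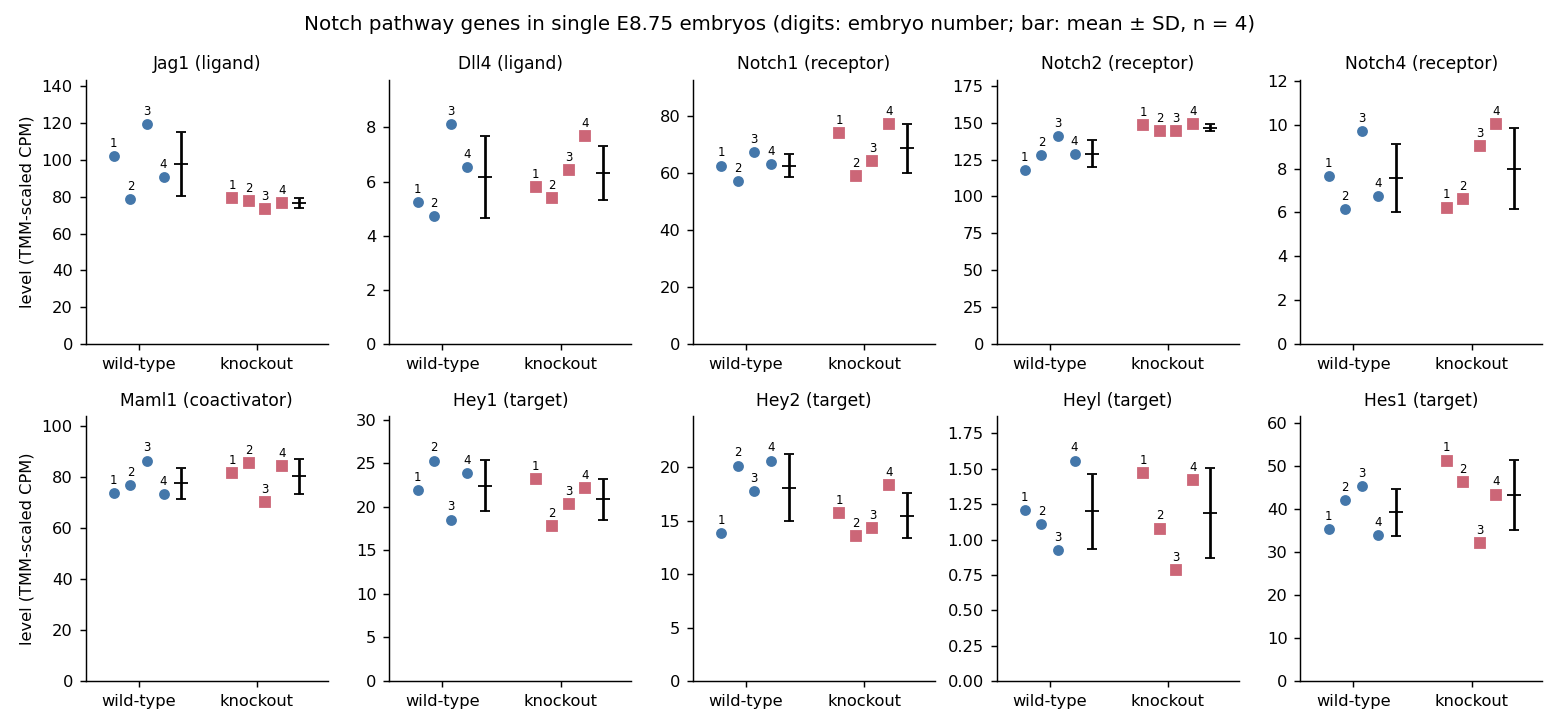
Level of each gene in TMM-scaled CPM from 0, 1 panel per gene, with each embryo as a numbered point and the mean ± SD as a bar (n = 4). In the Notch2 panel every knockout embryo lies above every wild-type embryo, and in the Jag1 panel the knockout embryos lie close together at 73.0 to 79.2 CPM.

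Of the 4 target genes 0 were called by edgeR or DESeq2, and 3 of the 4 estimates were below 0. None had an unadjusted p under 0.05 with all embryos and no covariate. Hey2 (NM_013904, chromosome 10, 30552165 to 30562607, minus strand), the repressor of the ventricular myocardium, was at 13.8, 20.2, 17.8 and 20.6 CPM in wild-type and at 15.7, 13.6, 14.3 and 18.3 CPM in knockout embryos. Wild-type embryos 2 and 4 lay above every knockout embryo, and wild-type embryo 1 lay among the lowest values of all. The estimate was -0.23 (SE 0.15, 95% interval -0.56 to 0.10, FDR = 0.456). It lay between -0.36 and -0.16 over the alternatives tried, and the lowest was the fit with the Y-linked covariate. The unadjusted edgeR p of Hey2 was under 0.05 only with this covariate (0.0474) and without wild-type embryo 1 (0.0315). Its FDR was 0.373 or more in every alternative. The cardiomyocyte marker sum, from a tissue where Hey2 is transcribed, averaged 3930 ± 687 CPM in wild-type and 1965 ± 352 CPM in knockout embryos (SD, n = 4 each). The knockout mean of Hey2 was 85.5% of the wild-type mean. The part of the myocardium in the Hey2 values was not tested.

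Hey1 (NM_010423, chromosome 3, 8663362 to 8667039, minus strand), of atrial myocardium and endothelium, was at 21.9, 25.3, 18.5 and 23.9 CPM in wild-type and at 23.2, 17.7, 20.3 and 22.2 CPM in knockout embryos. Its groups overlapped, with an estimate of -0.10 (95% interval -0.38 to 0.17, FDR = 0.702) that ran from -0.22 with the Y-linked covariate to -0.03 without knockout embryo 2. Heyl (NM_013905, chromosome 4, 122910799 to 122927118, plus strand), the least abundant of the Hey genes, was at 1.21, 1.11, 0.927 and 1.56 CPM in wild-type and at 1.47, 1.08, 0.784 and 1.42 CPM in knockout embryos. These values rest on 15 to 41 reads per library, and the estimate of -0.01 (FDR = 0.984) had the widest interval of the 10 genes, -0.61 to 0.59. Hes1 (NM_008235, chromosome 16, 30064470 to 30067882, plus strand), a target used in many progenitor cells, was at 35.3, 42.2, 45.5 and 34.0 CPM in wild-type and at 51.3, 46.4, 32.2 and 43.4 CPM in knockout embryos. Knockout embryos held both its highest and its lowest value, and the estimate was 0.14 (95% interval -0.18 to 0.47, FDR = 0.652). It was 0.05 without knockout embryo 1 and 0.26 without knockout embryo 3. The summed RPKM of the 4 targets, of which Hes1 made up 54.8% to 70.1%, was 44.8 ± 4.01 in wild-type and 45.9 ± 6.34 in knockout embryos (SD, n = 4 each).

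Comparing the roles, the median log2 fold change was -0.16 for the 2 ligands, 0.13 for the 3 receptors and -0.06 for the 4 targets. The ligand median is the midpoint of Jag1 (-0.35) and Dll4 (0.03) and describes neither. The target median was slightly above 0 without knockout embryo 2 (0.01), knockout embryo 3 (0.02) or wild-type embryo 4 (0.0044), and -0.20 with the Y-linked covariate. The ligand median ran from -0.26 without wild-type embryo 2 to -0.02 without wild-type embryo 3, and the receptor median from 0.05 to 0.21. The summed level of Jag1 and Dll4 was 20.2, 15.8, 24.2 and 18.5 RPKM in wild-type and 16.2, 15.8, 15.2 and 16.3 RPKM in knockout embryos. The summed level of the 3 receptors was 19.1, 19.2, 22.1 and 20.01 RPKM in wild-type and 22.9, 21.04, 21.9 and 23.9 RPKM in knockout embryos. Both sums overlapped between genotypes. The ligand sum as a percentage of the receptor sum was 106%, 82.1%, 110% and 92.3% in wild-type and 70.6%, 75.03%, 69.4% and 68.0% in knockout embryos, so on this ratio the groups did not overlap. The ratio was mostly that of Jag1 to Notch2, the genes with the lowest p-values, for which the percentage was 118% to 165% in wild-type and 96.9% to 103% in knockout embryos. The ratio of Jag1 to Notch2 was chosen after their values were seen. The ratio of the sums rests mostly on the same genes, so its separation is not independent of their p-values. Both ratios are given as descriptions without a test, and how often ratios of other genes lie apart was not computed. With Dll1, Dll3, Jag2 and Notch3 added to the sums, a set chosen after seeing the data, the percentage was 86.7%, 73.7%, 80.1% and 85.6% in wild-type and 69.7%, 65.4%, 73.3% and 61.5% in knockout embryos. The groups were then almost in contact, and the difference of the means shrank from -26.7 to -14.1 percentage points. Notch3 contributed 15.0 RPKM in wild-type and 17.2 RPKM in knockout embryos on average, more than Notch2, and Dll1 contributed 6.15 and 7.70 RPKM. Dlk1, counted below among the other ligands, was left out of both ligand sums. Its mean was 26.9 RPKM in wild-type and 30.9 RPKM in knockout embryos, above that of Jag1, with overlapping groups. The separation on these ratios therefore holds only for the ligands named, and no ratio with Dlk1 was computed.

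**Figure D4:**
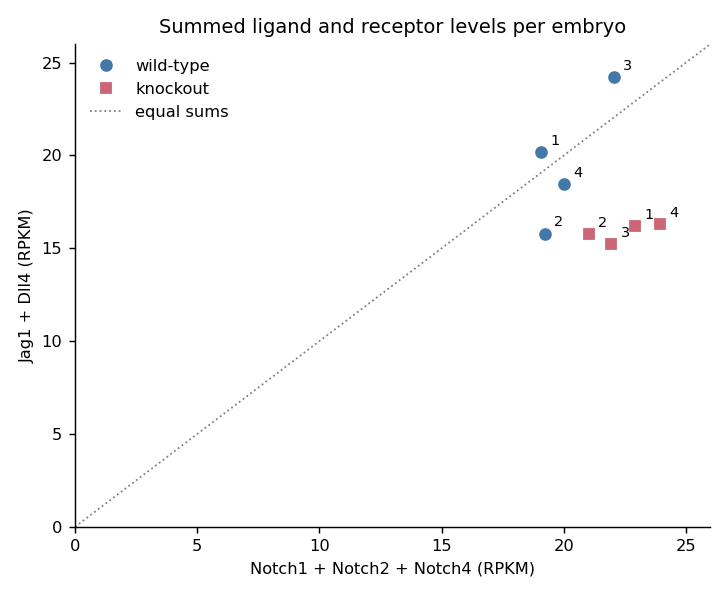
Summed level of Jag1 and Dll4 against that of Notch1, Notch2 and Notch4 per embryo, in RPKM (circles wild-type, squares knockout, digits the embryo number, dotted line equal sums). The 4 knockout embryos lie below the line at 68.0% to 75.03%, and the wild-type embryos lie nearer to it or above it, at 82.1% to 110%.

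The other genes of the pathway were taken from a list of 60, of which Dlk2, Hes2, Hes7 and Helt did not pass the filter and 56 were tested. 34 estimates were above 0 and 22 below, with a median of 0.04. At an FDR of 0.05, 0 were higher and 1, Neurl1b, was lower, and at an unadjusted p under 0.05, 6 were higher and 1 lower. Over all genes 0.973% passed the FDR, and 7.37% were higher and 10.1% lower at that unadjusted p. DESeq2 called 3 higher and 1 lower, where it called 5.35% of all genes. Past the study's pair of limits 2 were higher and 1 lower, where 3.93% of all genes passed. All knockout values lay above the wild-type values for 3 and below them for 1, against 3.96% and 6.33% of all genes. The remaining receptor, Notch3, had an estimate of 0.20 (FDR = 0.309). The 4 other ligands tested, the 10 proteases and gamma-secretase subunits, the 5 glycosyltransferases, the 8 further proteins of the nuclear complex and the 9 corepressors held no call in either tool. The lowest edgeR FDR among them was 0.254, for Maml2, whose adjusted p in DESeq2 was 0.187. The 4 other ligands, Dll1, Dll3, Jag2 and Dlk1, all had estimates above 0, with a median of 0.26, beside -0.35 for Jag1 and 0.03 for Dll4.

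Neurl1b (NM_001081656, chromosome 17, 26551910 to 26583283, plus strand) encodes a Neuralized-type E3 ubiquitin ligase, a family that promotes endocytosis of Notch ligands in the sending cell. It was at 6.34, 5.76, 7.96 and 7.53 CPM in wild-type and at 3.29, 1.99, 3.24 and 2.59 CPM in knockout embryos, so every knockout embryo lay below every wild-type embryo. The log2 fold change was -1.31 (SE 0.19, 95% interval -1.74 to -0.88, FDR = 0.0112), and the knockout mean was 40.3% of the wild-type mean. The call was lost without knockout embryo 4, where the estimate was -1.28 (FDR = 0.0551). The cardiomyocyte marker sum fell in the same embryos (2931 to 4416 against 1567 to 2389 CPM), and its part in this difference was not tested.

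On the higher side, Dtx3, of the Deltex family of ubiquitin ligases, had an estimate of 0.35 (SE 0.08, FDR = 0.0676). It was at 55.8, 50.8, 55.9 and 57.5 CPM in wild-type and at 72.6, 62.1, 70.8 and 74.3 CPM in knockout embryos, with no overlap. DESeq2 called it (adjusted p = 0.00279), and so did edgeR without knockout embryo 2 (FDR = 0.0443). Hes5, a target best known from neural progenitors, was at 2.55, 2.88, 3.46 and 4.37 CPM in wild-type and at 11.6, 6.09, 6.27 and 6.07 CPM in knockout embryos. Its groups did not overlap, and knockout embryo 1 stood above the rest. The estimate was 1.18 (SE 0.26, FDR = 0.0683) in edgeR and the adjusted p in DESeq2 was 0.00182. Without knockout embryo 1 the estimate was 0.89. The sum of 9 neural tube and neural crest markers, led by Sox2 and Pax6, was also highest in knockout embryo 1, at 421 CPM. It was 315 to 359 CPM in the other knockout and 300 to 348 CPM in the wild-type embryos. Of these 9 genes 0 were called, where edgeR called 0.973% of all genes. Their estimates were above 0 for 8 and below for 1, with a median of 0.16. The part of neural tissue in the Hes5 values was not tested.

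Mib2, a ligand-directed ubiquitin ligase of the Mind bomb family, was at 12.1, 12.4, 12.7 and 15.9 CPM in wild-type and at 18.9, 14.8, 18.8 and 19.3 CPM in knockout embryos, overlapping by wild-type embryo 4 and knockout embryo 2. Its estimate was 0.43 (FDR = 0.137), called by DESeq2 (adjusted p = 0.0424) and not by edgeR. The next lower estimates after Neurl1b by p were Snw1, a nuclear cofactor, at -0.15 (FDR = 0.323) and Itch, a ubiquitin ligase of the receptor, at -0.15 (FDR = 0.328).

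**Figure D5:**
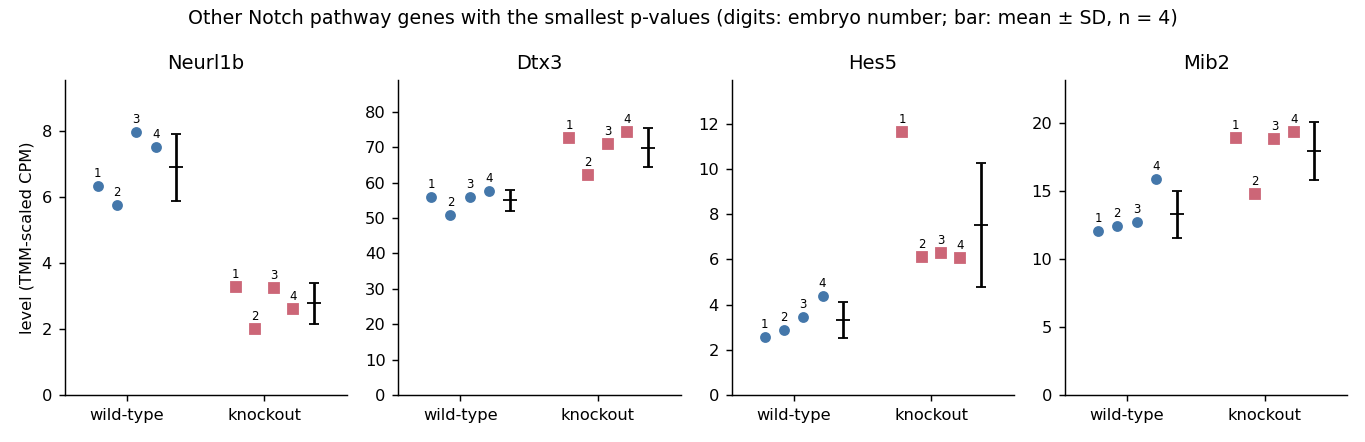
Level of Neurl1b, Dtx3, Hes5 and Mib2 in TMM-scaled CPM from 0, with each embryo as a numbered point and the mean ± SD as a bar (n = 4). The knockout embryos lie below the wild-type range for Neurl1b and above it for Dtx3 and Hes5, and Hes5 in knockout embryo 1 stands at 11.6 CPM.

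The genes whose log2 CPM followed Jag1 most closely over the 8 embryos were Scn4a (Pearson r = 0.988), Frzb (0.970), Pard3 (0.962), Eif1ad (0.954) and Col13a1 (0.949). These are the highest of 14075 genes over 8 points that share library scaling, and they are given as a description. Their own log2 fold changes ran from -1.17 for Scn4a, a sodium channel of muscle, to -0.08 for Pard3, a polarity protein. None of the 5 was called (FDR of 0.145 to 0.491).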

How the data were processed

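Members, gene lists and tests were chosen with earlier results of these data known. The deposited count values were raw reads per RefSeq transcript, which the authors mapped to mm9 with STAR (introns of 20 to 500000 bases) and counted over exons on both strands with HOMER. Reads of overlapping antisense genes could therefore not be told apart. The authors computed the deposited RPKM with edgeR (recomputation differed by at most 0.000492). Levels printed here as RPKM are instead counts per length on TMM-scaled library sizes. The deposited length is in bases. The table's DESeq2 mean signal, log2 fold change, Wald score and p-value columns are the authors' own comparison, as the deposited headers show, and were not used. Tool versions of the authors were not given in the sources used here.

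Of 31507 entries, the 1 with the highest summed count was kept per symbol (20701 symbols, 5808 with several entries). Groups came from the sample titles, 4 knockout and 4 wild-type embryos, and control columns were matched by replicate number. Counts were fitted in R 4.3.3 with edgeR 4.0.16 (filterByExpr, TMM, quasi-likelihood test with genotype as the term, two-sided), with Benjamini-Hochberg adjustment (FDR) over 14075 genes. DESeq2 1.42.0 and limma 3.58.1 on log2(RPKM + 1) were alternatives, beside other scaling, no filter, the longest transcript, a replicate block, Y-linked and endothelial covariates and leaving out each embryo. The scripts were tested on simulated counts. Single values were compared by exact two-sided permutation, whose smallest p is 0.0286. Reads carry no molecular identifiers, so precision from depth covers counting error only. The p-values of the fits set the genotype difference against the spread between these embryos, estimated with information shared across genes. Named genes were the 10 members, listed pathway genes past the FDR or among the 3 lowest p-values in each direction, Isl1 and the 5 genes most like the member with the lowest p. Gene positions came from GENCODE vM1 (mm9) and promoters from RefSeq. Tables and plots used Python 3.11.15 and matplotlib 3.10.9.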

Additional observations from a re-analysis of the deposited data

Results flagged for a closer look

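Each gene described by embryo was examined for embryos far from the rest of their genotype, in 32 groups of 4 by Dixon's criterion at the 95% level, of which chance picks about 1 in 20. There were 3 such values. Hes5 stood at 11.6 CPM in knockout embryo 1, beside 6.07 to 6.27 CPM in the other knockout embryos. Mib2 stood at 15.9 CPM in wild-type embryo 4, beside 12.1 to 12.7 CPM in the other wild-type embryos, and at 14.8 CPM in knockout embryo 2, beside 18.8 to 19.3 CPM in the other knockout embryos. None of the 10 ligand, receptor, coactivator and target genes gave such a value.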

How the results depend on the processing

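No alternative of the 16 tried brought any of the 10 genes past an FDR of 0.05, and the lowest values were 0.0508 for Notch2 and 0.0771 for Jag1. Estimates near 0 changed sign. Dll4 was -0.075 with the Y-linked covariate and -0.073 to 0.195 when embryos were left out, Notch4 was -0.0568 to 0.213 and Heyl -0.14 to 0.14 when embryos were left out, and Heyl was 0.000606 without the filter on low counts. The ligand to receptor difference was -14.1 percentage points with Dll1, Dll3, Jag2 and Notch3 added and Dlk1 left out, a set chosen after seeing the data. The groups were apart for 1 to 2 of the 10 genes when embryos were left out, the added gene being Jag1 without knockout embryo 1 or wild-type embryo 2. Among the other pathway genes the count past the threshold was 4 with DESeq2 and 0 to 2 when embryos were left out (0 without knockout embryo 4, 2 without knockout embryo 2), against 1. Over all genes it was 709 with DESeq2, 76 with the replicate block and 70 to 490 when embryos were left out, against 137. It was 490 without wild-type embryo 3, and at most 85 without knockout embryo 1 or 4 or wild-type embryo 1, 2 or 4. The causes of these shifts were not tested. The replicate numbers are not tied to a litter or day in the labels. Deviations of same-numbered embryos correlated at r = 0.109, 0.212, 0.0863 and 0.507 for numbers 1 to 4. Only knockout embryo 4 and wild-type embryo 1 correlated best with their own number, so the numbers were not read as pairs. With the block, 0 of the 10 genes were called and Neurl1b kept its call (FDR = 0.0268). On the log2(RPKM + 1) scale, which understates changes of low genes, Neurl1b was -0.55 and still called (FDR = 0.0139). Heyl, Notch4 and Dll4 had the lowest counts and the widest intervals of the 10 genes.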
